A study of Canis lupus familiaris with 12 samples.

Results

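miR-221 and miR-222 are a pair of microRNAs (miRNAs) made from neighbouring genes on the X chromosome. They were selected here by name as cfa-miR-221 and cfa-miR-222, 2 of the 453 canine miRNAs listed in the deposited table. Their levels were compared between CHMm, established from a metastasis of a dog's mammary tumor, and CHMmTAM, the TAM-resistant line derived from it. TAM is tamoxifen, an antagonist of the estrogen receptor in breast cells. CHMmTAM was raised under increasing TAM for 10 months up to 10 μM, was then kept at 10 μM for 1 month and, per the labels, grew without the drug for 1 week. The methods name a steroid-depleted medium without phenol red for the cells and list no separate one for CHMm. As written, that medium also contains hydroxytamoxifen, a hydroxylated form of TAM. The methods do not say whether CHMm, or CHMmTAM in its week without the drug, was grown with hydroxytamoxifen. There were 3 small RNA libraries of each line. All 3 resistant libraries come from 1 resistant line, so resistance cannot be told apart from other differences that arose during its culture. Neither the labels nor the methods say that the libraries of a line came from separate cultures, so the p-values measure the spread between these libraries, which may be technical.

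The 2 miRNAs are processed from one primary transcript and carry the same seed, the bases at the 5′ end that choose the target, so they are read as regulators of a common set of mRNAs. In human breast cancer cells they are known to repress ESR1, which encodes estrogen receptor alpha, and CDKN1B, which encodes p27, an inhibitor of the cell cycle. They are usually described as more abundant in cells that lack the estrogen receptor, and have been studied as contributors to TAM resistance. In the RefSeq genes of the dog assembly UU_Cfam_GSD_1.0, MIR221 and MIR222 both lie on chromosome X within the span of the lncRNA gene LOC111094885, and no other annotated gene lies within 100 kb of them. The submitters' notes name another build, so no coordinates are given. The expression of LOC111094885, ESR1 and CDKN1B was not analysed here.

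The libraries held from 7512659 to 12482211 counts, and 3 counts correspond to between 0.24 and 0.399 CPM (counts scaled to 1000000 per library). Libraries of the same line differed by more than sampling noise, with chi-square values of 26.3 to 85.8 per degree of freedom, so all were counted as separate libraries. The epithelial markers miR-200a, miR-200b, miR-200c, miR-141, miR-429, miR-205 and miR-203 summed to between 24457 and 26852 CPM of all counts in CHMm and to between 21958 and 23739 CPM in CHMmTAM. None of the 7 passed both thresholds given below, which 11.3% of all tested miRNAs did. By edgeR FDR alone, miR-200a, miR-200b and miR-429 were higher, at 0.27, 0.21 and 0.36 on the log2 scale, and miR-205 and miR-203 lower, at -0.66 and -0.24. The rises depended in part on the scaling. Under upper-quartile normalization miR-200a, miR-200b and miR-429 were at 0.029, -0.032 and 0.12 (edgeR FDR = 0.804, 0.807 and 0.140). miR-205 and miR-203 stayed lower by FDR there, at -0.90 and -0.49. miR-200b also missed FDR under RLE (edgeR FDR = 0.112) and with library totals only (edgeR FDR = 0.066). miR-200a and miR-429 stayed higher by FDR under both, at 0.21 and 0.30 under RLE and at 0.27 and 0.36 with library totals only. Markers of blood cells summed to 4.99 to 6.12 CPM in CHMm and 12.2 to 15.0 CPM in CHMmTAM. miR-486 was called higher at 2.40, from only 10, 9 and 10 counts in CHMm replicates 1, 2 and 3, and miR-142 was higher by FDR alone at 0.77. miR-223 at 0.82 and miR-451 at 0.85 did not pass FDR, and miR-144 and miR-150 had 3 counts or fewer in every library. The endothelial marker miR-126 had 3 counts or fewer throughout. Muscle markers summed to 284 to 309 CPM in CHMm and 430 to 442 CPM in CHMmTAM, mostly miR-499. miR-1, miR-133a, miR-133b and miR-133c were called higher there, as 5.99% of all tested miRNAs were, and miR-133b had at most 16 counts in a library. miR-499 was higher by FDR alone at 0.48, with miR-206, miR-208a and miR-208b at 3 counts or fewer. Fibroblast and smooth muscle markers summed to 38.6 to 48.3 CPM in CHMm and 23.8 to 28.1 CPM in CHMmTAM, mostly miR-199. miR-199 was lower by FDR alone at -0.85, from a mean of 37.8 CPM in CHMm to 21.2 CPM in CHMmTAM. The others did not pass FDR, with miR-143 at 0.54, miR-214 at -0.55 and miR-145 at -0.17. miR-145 had at most 5 counts in a library. Apart from the epithelial one, these sums reached at most 442 CPM in a library, and the part of all of them in the results was not tested. In such bulk libraries, fewer cells that carry a miRNA and less of it per cell cannot be told apart.

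Both miRNAs were downregulated in CHMmTAM to well below their CHMm level. miR-221 had 158461, 223878 and 175392 counts in CHMm replicates 1, 2 and 3 and 90001, 75676 and 57431 counts in CHMmTAM replicates 1, 2 and 3. Scaled by library size and composition with edgeR's TMM factors, these were 21667, 19275 and 19604 CPM in CHMm and 7046, 6861 and 7215 CPM in CHMmTAM. The lowest parental library was thus far above the highest resistant one. The means were 20182 ± 1297 CPM (SD, n = 3) and 7041 ± 177 CPM (SD, n = 3), a log2 fold change of -1.52 (standard error 0.06). This is 2.87-fold lower in CHMmTAM, with a 95% interval from 2.63 to 3.13.

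miR-222 behaved alike at a nearly equal level. The parental libraries held 148714, 221995 and 170390 counts of it and the resistant ones 100678, 78784 and 61255, which gave 20335, 19113 and 19045 CPM in CHMm and 7882, 7142 and 7696 CPM in CHMmTAM. Again the ranges of the 2 lines did not overlap. The means were 19497 ± 726 CPM (SD, n = 3) and 7573 ± 385 CPM (SD, n = 3). The log2 fold change was -1.36 (standard error 0.06), which is 2.57-fold lower in CHMmTAM with a 95% interval from 2.36 to 2.81. Adjusted by Benjamini-Hochberg over all 284 tested miRNAs, the FDR of the edgeR quasi-likelihood fit was 8.96e-98 for miR-221 and 1.90e-82 for miR-222. These very small values rest on a spread shared over all tested miRNAs, and over the 18 alternative settings they reached at most 5.22e-10 and 1.38e-08. The value for miR-222 came from edgeR's glmTreat, which tests against a 2-fold change and not against no change. Without CHMm replicate 1, the edgeR quasi-likelihood FDR was 5.22e-10 for miR-221 and 1.34e-09 for miR-222.

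**Figure D1:**
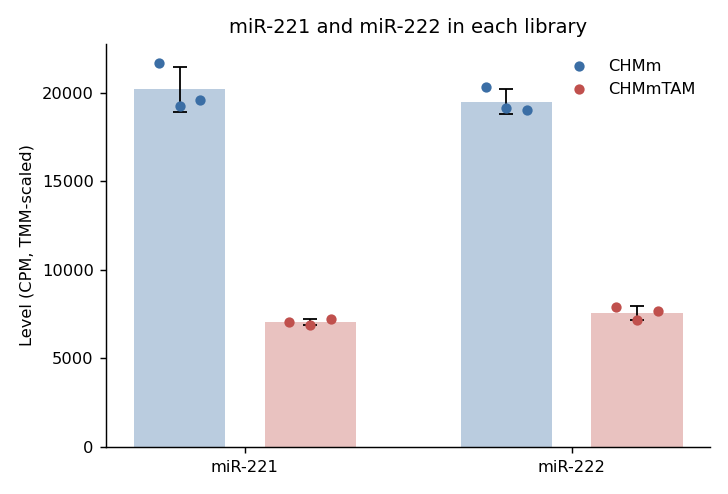
Level of miR-221 and miR-222 in CPM after TMM scaling, with 1 point per library, bars at the mean of 3 libraries and error bars of 1 SD. All CHMm points lie at 19045 CPM or above and all CHMmTAM points at 7882 CPM or below.

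Differential expression was called at FDR below 0.05 with a log2 fold change above 1 or below -1, the thresholds of the study. Both members passed, on the lower side, which 5.28% of the tested miRNAs did. In all, 32 miRNAs (11.3%) passed, 15 lower and 17 (5.99%) higher. Under upper-quartile normalization the split was 22 lower and 12 higher. Both members also had CPM ranges that did not overlap between the lines and were lower in CHMmTAM, as was the case for 22.9% of the tested miRNAs, and for 51.8% in either direction. The pair was chosen with these results known.

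The variation between replicates was small for both members. The coefficient of variation of miR-221 was 6.43% in CHMm and 2.52% in CHMmTAM, and that of miR-222 was 3.72% in CHMm and 5.08% in CHMmTAM. The 2 members deviated to the same side of their line's mean in every library. In CHMm replicate 1, for example, miR-221 was 0.10 and miR-222 0.06 above the mean on the log2 scale, and in CHMmTAM replicate 2 they were at -0.04 and -0.08. In CHMmTAM replicate 1 they were at 0.0014 and 0.059, so miR-221 was hardly off its mean there. The members of a library share its depth and scaling, so this is a description only.

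Most other abundant miRNAs differed less between the lines. Taking the mean over all 6 libraries, 20 miRNAs had at least 10000 CPM, and miR-221 and miR-222 had the lowest log2 fold changes of them. The other 18 lay between -0.54 (miR-26a) and 0.77 (miR-183), with a median of -0.11. The members entered this set only through their level in CHMm, as they were at 7041 and 7573 CPM in CHMmTAM. Their place at its low end is thus a description only. Among the 117 miRNAs with a mean of at least 50 CPM over all libraries, the members ranked 4 and 5 from the lowest log2 fold change, and among all 284 they ranked 14 and 17. The miRNAs with larger falls were thus of lower abundance, as the plot of fold change against level shows.

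**Figure D2:**
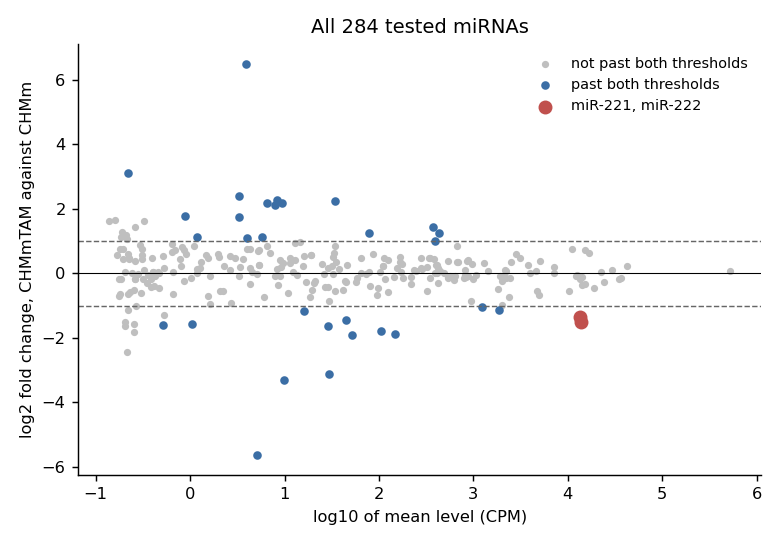
Each point is 1 of the 284 tested miRNAs, with the log10 of its mean level in CPM on the horizontal axis and its log2 fold change of CHMmTAM against CHMm on the vertical axis. Dashed lines mark the fold-change thresholds of 1 and -1, and miR-221 and miR-222 at -1.52 and -1.36 are the most abundant miRNAs below the lower line.

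By mean level, miR-221 and miR-222 ranked 9 and 10 in CHMm and 22 and 19 in CHMmTAM. Within CHMm, the range of miR-221 overlapped with those of let-7f at 21788 ± 1219 CPM (SD, n = 3) and miR-148a at 21955 ± 825 CPM just above it. It also overlapped with that of miR-222 just below. Inside each CHMm library the order was clearer. let-7f had 23176, 21292 and 20895 CPM in replicates 1, 2 and 3, each above the 21667, 19275 and 19604 CPM of miR-221, which in turn was above miR-222 in each. let-7b at 16655 ± 700 CPM and miR-7 at 15919 ± 277 CPM came next and did not overlap with either member. In CHMmTAM, the neighbours of miR-222 with overlapping ranges were miR-26a at 8341 ± 527 CPM, miR-191 at 7506 ± 256 CPM and miR-92a at 7130 ± 423 CPM. The last 2 overlapped with miR-221 as well. Above them, miR-30d at 11765 ± 427 CPM stood apart from miR-222, and below them miR-20a at 5654 ± 742 CPM and miR-181d at 4726 ± 348 CPM stood apart from miR-221. Levels of different miRNAs are compared here as read counts on mature RNAs of similar length. Any difference in how well each is captured in a library was not tested.

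**Figure D3:**
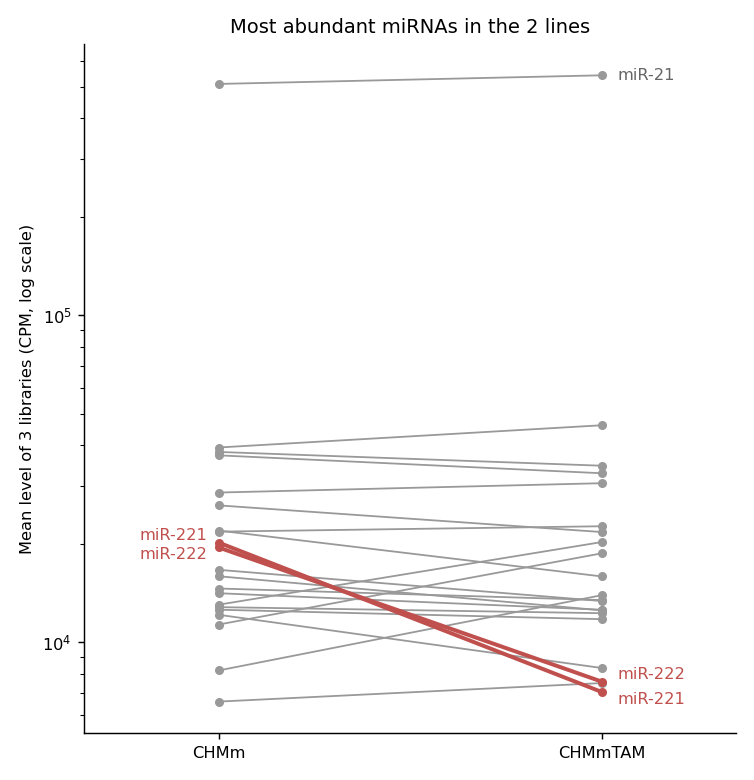
Mean level of 3 libraries in CPM on a log axis in CHMm (left) and CHMmTAM (right) for each miRNA among the 20 most abundant of either line, with a line joining the 2 means of a miRNA. miR-221 and miR-222 run from ranks 9 and 10 down to ranks 22 and 19, while miR-21 stays far above the rest.

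Together the 2 miRNAs took 4.09%, 3.89% and 3.92% of all counts in CHMm replicates 1, 2 and 3 and 1.53%, 1.40% and 1.46% in CHMmTAM replicates 1, 2 and 3. The 95% Wilson intervals, which cover counting error only, were narrow. They ran from 4.07% to 4.10% in the parental library with the highest share and from 1.39% to 1.40% in the resistant library with the lowest. The mean share fell from 3.97% ± 0.11 (SD, n = 3) to 1.46% ± 0.07 (SD, n = 3). An exact two-sided permutation test over the libraries gave p = 0.1, the smallest that 3 against 3 allows.

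The loss of these 2.51 percentage points was large within the small RNA pool. Summed over all 198 miRNAs whose mean share of counts was lower in CHMmTAM, 7.12 percentage points were lost, of which the pair made up 35.2%. miR-221 lost 1.31 points and miR-222 1.19 points, ahead of miR-148a with 0.61 points and miR-27a with 0.46 points. On the other side, the share of miR-21, the most abundant miRNA in both lines, was 50.9% ± 0.75 (SD, n = 3) in CHMm and 54.0% ± 0.39 in CHMmTAM. Its 3.11 points made up 43.7% of all gains. Shares sum to a fixed total, so gains and losses of share are not independent, and with TMM scaling the log2 fold change of miR-21 was 0.09 (edgeR FDR = 0.236), which turned to -0.15 under upper-quartile normalization.

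The pair was also measured without scaling. Set against miR-21 in the same library, with no scaling factor, the log2 ratio of miR-221 went from -4.66 ± 0.04 (SD, n = 3) in CHMm to -6.26 ± 0.04 in CHMmTAM, and that of miR-222 from -4.71 ± 0.01 to -6.16 ± 0.09. Over all tested miRNAs the median of the log2 fold changes was 0.06 with TMM and -0.18 with upper-quartile normalization. Relative to that median, miR-221 was at -1.58 and miR-222 at -1.42 with both, as follows from the construction, since a scaling factor moves all miRNAs by nearly the same amount.

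The order of the 2 members differed between the lines. miR-221 had more counts than miR-222 in all 3 CHMm libraries, by ratios of 1.07, 1.01 and 1.03, and fewer in all 3 CHMmTAM libraries, with ratios of 0.894, 0.961 and 0.938. The mean log2 ratio of miR-221 to miR-222 was 0.05 ± 0.04 (SD, n = 3) in CHMm and -0.10 ± 0.05 in CHMmTAM, a difference of -0.15. The ranges did not overlap, and the difference was larger than the spread between libraries. The exact two-sided permutation test gave p = 0.1, the smallest this design allows, so the threshold of 0.05 could not be reached. The difference ran from -0.18 to -0.12 with 1 library left out at a time. The ratio does not depend on scaling, since both counts come from the same library.

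**Figure D4:**
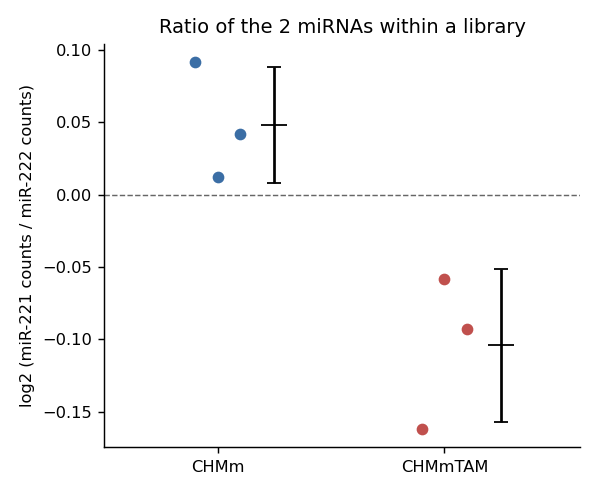
log2 ratio of miR-221 counts to miR-222 counts within each library, with 1 point per library and the mean with an SD bar beside the 3 points of each line. The CHMm libraries lie above 0, between 0.01 and 0.09, and the CHMmTAM libraries below 0, between -0.16 and -0.06.

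Other miRNA clusters were used to set this small difference in context. Genes within 10 kb of each other in the RefSeq annotation were grouped, using miRNAs with a single gene. In 12 clusters every tested member had a mean of at least 50 CPM. The range of log2 fold changes within these clusters went from 0.01, for miR-181d and miR-181c, to 0.40, for miR-106b, miR-93 and miR-25, with a median of 0.13. The range of 0.16 for miR-221 and miR-222 lay above that median, and 8 of the 12 clusters were narrower. A range grows with the number of members, and among the 8 clusters of 2 members the median range was 0.11, with 5 narrower than the pair. Every tested member passed both thresholds in 1 of the 12 clusters, that of miR-221 and miR-222, and none did in 10. In the remaining cluster, miR-125a and let-7e passed and miR-99b missed at -0.99. All 3 of its members passed under RLE (miR-99b at -1.05), upper-quartile normalization (-1.23), TMM without the 10 most abundant miRNAs (-1.05) and DESeq2 (-1.05), and also without CHMm replicate 2 (-1.004) and without CHMmTAM replicate 1 (-1.003). A whole cluster passing was not particular to the pair once the cut of 50 CPM was dropped. miR-34c and miR-34b, with a lowest mean of 6.54 CPM, both passed as higher, at 2.26 and 2.19, a range of 0.07. Among the 8 clusters of 2 members, the within-library ratio did not overlap between the lines in 1, that of miR-221 and miR-222 (12.5%). The ratio of miR-27b to miR-23b changed by -0.19 and that of miR-23a to miR-27a by 0.18, both more than for miR-221 and miR-222, but their ranges overlapped, with an SD of up to 0.21 within a line.

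**Figure D5:**
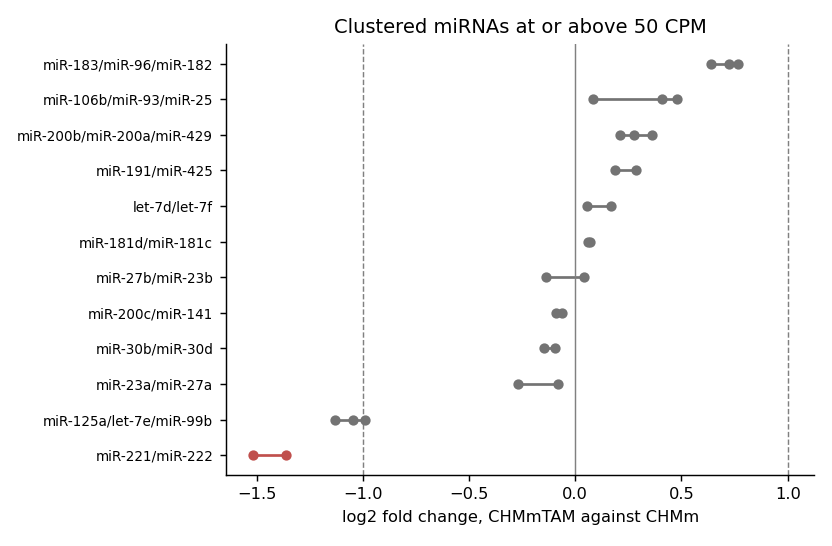
log2 fold change of CHMmTAM against CHMm for the members of the 12 genomic clusters with every tested member at 50 CPM or above, 1 point per miRNA and 1 row per cluster, ordered by median. miR-221 and miR-222 have the lowest values, followed by miR-125a, let-7e and miR-99b, whose members lie between -1.13 and -0.99, on both sides of the dashed threshold line at -1.

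The miRNAs whose pattern was most like that of the pair were sought among 115 others with a mean of at least 50 CPM. The log2 CPM values of each miRNA were centred on its own mean. Likeness was the root mean square distance, over the 6 libraries, to the mean of the centred values of miR-221 and miR-222. The 5 nearest were miR-125a (0.17), let-7e (0.20), miR-375 (0.21), miR-99b (0.24) and miR-210 (0.25). The distance from miR-221 to miR-222 was 0.09, taken between the 2 members and not to their mean. 3 of the 5, miR-125a, let-7e and miR-99b, belong to one cluster on chromosome 1, and they had smaller falls. For miR-125a, CHMm had 2571 ± 63.1 CPM (SD, n = 3) and CHMmTAM had 1174 ± 28.9 CPM, so that the log2 fold change was -1.13. let-7e was at -1.04 and miR-99b at -0.99, which missed the fold-change threshold but passed it under the settings given above. The remaining 2 had larger falls from lower levels. miR-375, an islet and endocrine miRNA, stood at -1.79 on the log2 scale and miR-210, a miRNA induced by hypoxia, at -1.88.

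The genes of the pair are on chromosome X, so the other X-linked miRNAs were examined. Of 32 tested miRNAs with all their genes on chromosome X, 0 passed both thresholds in either direction in edgeR's quasi-likelihood test, beside 11.3% of all tested miRNAs. Under some other settings 1 or 2 of them were called lower, each with at most 26 counts in a library. By FDR alone 9 of the 32 were lower, beside 18.7% of all tested miRNAs, and 3 were higher, beside 25.4%. The median log2 fold change of the 32 was 0.02, beside 0.06 for all tested miRNAs. The most abundant of them were miR-98 and miR-374a. miR-98, a let-7 family member, stood at 2070 ± 68.7 CPM (SD, n = 3) in CHMm with a log2 fold change of 0.09, and miR-374a at 1040 ± 24.7 CPM with -0.18. The largest fall among those above 100 CPM in CHMm was that of miR-532, at -0.54 (edgeR FDR = 2.11e-12).

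miR-221 and miR-222 share their known targets with other miRNAs, and those lists are given here by count. Of 6 other miRNAs reported to repress ESR1, miR-206 was at 3 counts or fewer in every library and was not tested. Of the 5 tested, 0 passed both thresholds in edgeR's quasi-likelihood test, and by FDR alone 2 were higher and 0 lower, with a median log2 fold change of 0.18. Of all tested miRNAs, 11.3% passed both thresholds, and by FDR alone 25.4% were higher and 18.7% lower. The 2 that rose by FDR were miR-18a at 0.45 and miR-20b at 0.58, both of which belong to miR-17 type clusters. miR-22, the most abundant of the list, stood at 1390 ± 111 CPM (SD, n = 3) in CHMm, beside 20182 CPM for miR-221, and its log2 fold change was 0.07 (edgeR FDR = 0.387). miR-18b at 0.18 and miR-193b at -0.07 also did not pass, and miR-193b had at most 23 counts in a library.

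Of the 5 other miRNAs reported to repress CDKN1B, 3 changed by FDR, in both directions. miR-152 fell by 3.31 on the log2 scale, from only 17.9 ± 1.37 CPM (SD, n = 3) in CHMm. miR-148a, of the same family, was lower by FDR at -0.47, from 21955 ± 825 CPM in CHMm to 15892 CPM in CHMmTAM. miR-181a was higher by 1.26 on the log2 scale, with 251 ± 7.47 CPM in CHMm and 601 CPM in CHMmTAM. miR-24, the most abundant of this list at 28690 ± 1469 CPM in CHMm, was at 0.10 on that scale (edgeR FDR = 0.219) and miR-196a at 0.01 (edgeR FDR = 0.960). Thus 1 of the 5 passed both thresholds on each side, with a median log2 fold change of 0.01. By FDR alone 2 were lower and 1 was higher. Over all tested miRNAs, 5.28% passed both thresholds on the lower and 5.99% on the higher side, and by FDR alone 18.7% and 25.4% did.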

How the data were processed

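Small RNA libraries of CHMm and CHMmTAM, 3 of each, were analysed. Libraries of longer RNA were not analysed here. The authors deposited raw read counts per mature canine miRNA without normalization. The submitters' processing notes list BWA, HISAT2 2.0.4 and CanFam3.1 without a role. The miRNA database, the trimming and the handling of reads matching more than 1 miRNA are not given in the sources used here. Whether they moved counts between miRNAs, miR-221 and miR-222 included, was not tested.

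The members and gene lists were chosen with earlier results of these data known. A further list chosen at the start is not reported here. Counts of the 284 miRNAs with a total of at least 10 were scaled by TMM and tested with the quasi-likelihood test of edgeR 4.0.16 in R 4.3.3, with Benjamini-Hochberg adjustment and no block. Intervals of fold changes are 95% intervals from the fit. The fit was tested on simulated data. Alternatives used DESeq2 1.42.0, limma 3.58.1, other scalings, filters and thresholds, and each library left out in turn. Ratios, shares and clusters used Python 3.11.15 and SciPy 1.17.1. RefSeq genes matched 281 of the 284 by name. The table gave no strand, so clusters rest on chromosome and distance. Mature sequences and shared seeds were not analysed here.

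Named miRNAs are the members, those of the fixed lists, the 5 of nearest pattern, neighbours in the order of levels, miR-21 and markers. Other cluster members, miR-183, miR-27a, miR-532, miR-98 and miR-374a were named after their values were seen, and the ratios of other clusters and the order among miRNAs abundant over all libraries were added then. The labels give replicate numbers 1 to 3 in each line, but same-numbered libraries deviated together with correlations of 0.06, 0.46 and -0.31 over 117 miRNAs, so they were not taken as paired.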

Additional observations from a re-analysis of the deposited data

How the results depend on the processing

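miR-221 and miR-222 kept their direction and call in all 18 alternatives, from -1.76 to -1.47 and from -1.60 to -1.32 in log2 fold change. The lowest values came from upper-quartile normalization and the highest from leaving out a library. Leaving out each library in turn gave -1.54 to -1.47 for miR-221, -1.38 to -1.32 for miR-222, -0.18 to -0.12 for the log2 ratio of the 2 and -2.55 to -2.45 percentage points for the change of their share. With the replicate number as a block, they were at -1.52 and -1.36 and 31 miRNAs passed both thresholds in place of 32. Same-numbered libraries are not shown to be pairs. With miR-21 left out of the total, the change of share was -4.91 percentage points, as the total is then smaller.

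FDR alone gave 125 miRNAs, 72 higher and 53 lower, and glmTreat gave 21, of which 11 were higher. By FDR alone, 2 ESR1 repressors were higher, 2 CDKN1B repressors lower, and 3 X-linked miRNAs higher and 9 lower. With both thresholds, X-linked miRNAs were called lower 1 time under RLE and limma-voom and 2 times under upper-quartile normalization, and 0 to 2 times with a library left out. Those calls were of miR-718, miR-660 and miR-8908c, with at most 26 counts in a library. For the 28 other miRNAs recomputed (both repressor lists, the 5 of nearest pattern, miR-21, miR-26a, miR-183, 3 X-linked miRNAs and 7 markers), 463 values kept direction and call, 20 gained the call, 3 lost it and 17 reversed, the reversed ones all of miRNAs without a call. The gains include those under FDR alone, which keeps the main fit and drops the fold-change threshold. There, any miRNA below an FDR of 0.05 gains the call by construction. The call was lost for miR-125a and let-7e under glmTreat and for let-7e without CHMm replicate 1, at -0.99. miR-196a was at -0.055 under RLE and DESeq2, at -0.051 under TMM without the 10 most abundant miRNAs, at -0.23 under upper-quartile normalization, at -0.0014 with at least 10 counts in every library, and from -0.020 to 0.074 with a library left out. Upper-quartile normalization gave -0.061 for miR-18b, -0.032 for miR-200b, -0.15 for miR-21, miR-24 and miR-98 and -0.17 for miR-22. miR-99b gained its call under RLE, upper-quartile normalization, TMM without the 10 most abundant miRNAs, DESeq2 and FDR alone, and without CHMm replicate 2 or CHMmTAM replicate 1. With a library left out, miR-193b ran from -0.20 to 0.19 and miR-22 from -0.031 to 0.15. The cause was not tested. The spread within shared seeds was not run.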
